A study of Mus musculus with 16 samples.

Results

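The interferon-inducible GTPases comprised 10 genes, the guanylate-binding proteins *Gbp2*, *Gbp3*, *Gbp4*, *Gbp6* and *Gbp7* and the immunity-related GTPases *Igtp*, *Irgm1*, *Irgm2*, *Iigp1* and *Tgtp1*. They were picked from 22911 gene symbols on the array by the transcript assigned to each probe. Of the 10 genes, 9 had a probe, with 11 probes in all, and *Tgtp1* had none. Expression was measured in whole kidneys on single-color arrays in 16 mice of 4 genotypes, 6 months old by the labels, though the legend of the study gives a wider span of ages, with 100 ng of RNA from a single mouse on each array. The 4 wild-type mice had the C57BL/6 background and, by the study's methods, were purchased. The 4 *Fcgr2b*-/- mice, a lupus model that lacks the inhibitory Fc gamma receptor IIb, had the 129/C57BL/6 background. Their labels name no *Sting* allele, whereas the study heads this group *Sting* wt/gt, so it is open whether they carried a single mutant copy, and each comparison with them, and the interaction, may set mice against *Sting* heterozygotes. The 4 double-deficient mice carried *Fcgr2b*-/- and *Sting* gt/gt on 129/C57BL/6. The 4 *Sting* gt/gt mice, on C57BL/6, carried the Goldenticket allele, a point mutation after which STING protein is not made. Strain and *Fcgr2b* genotype therefore cannot be told apart in the comparisons of *Fcgr2b*-deficient with *Fcgr2b*-sufficient mice. The arrays were on 2 slides, with 2 wild-type, 3 *Fcgr2b*-deficient, 1 double-deficient and 2 *Sting*-deficient mice on slide 1 and the others on slide 2. Between 28443 and 35566 of 56605 probes were well above background on an array, and the 75th percentile of intensity lay between 387.6 and 951.1. By the first number of the animal label, whose meaning is not given, *Fcgr2b*-deficient mouse 3 and double-deficient mouse 4 shared a number, as did *Fcgr2b*-deficient mouse 4 with double-deficient mouse 3 and wild-type mouse 3 with wild-type mouse 4. Levels are given as log2 intensity minus the log2 75th percentile of the same array, so 0 is the 75th percentile. All 9 members with a probe were well above background on all 16 arrays, with 0 values missing.

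Guanylate-binding proteins and immunity-related GTPases are dynamin-like proteins that cells make in response to interferons, above all interferon gamma, through STAT and IRF factors that bind GAS and ISRE elements. They gather on the membranes around intracellular microbes with the help of the autophagy conjugation proteins, and guanylate-binding proteins also assist inflammasome caspases. In kidneys with lupus nephritis they belong to the interferon-stimulated genes by which interferon exposure is read, and both infiltrating leukocytes and resident kidney cells can express them.

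The genes altered in these mice were examined first. Log2 *Fcgr2b* level was 1.63, 1.35, 1.07 and 0.60 in wild-type mice 1 to 4, 0.21, −0.53, −0.47 and −0.32 in *Fcgr2b*-deficient mice, −0.59, −0.00024, −0.93 and −0.80 in double-deficient mice, and 0.996, 0.51, 0.17 and −0.66 in *Sting*-deficient mice. Every *Fcgr2b*-deficient and double-deficient mouse lay below every wild-type mouse, and these groups did not overlap, whereas *Sting*-deficient mice overlapped all other groups. The difference from wild-type was −1.44 (SE 0.35) log2 in *Fcgr2b*-deficient mice and −1.74 (SE 0.35) log2 in double-deficient mice, and with limma adjusted p values of 0.416 and 0.449 neither passed the threshold. Log2 *Sting1* level was 0.53, −1.92, −1.13 and −0.55 in wild-type mice 1 to 4, 2.20, −0.67, −0.81 and 1.97 in *Fcgr2b*-deficient mice, −0.40, 0.40, −0.62 and −1.12 in double-deficient mice, and 0.47, −0.38, −0.63 and −0.36 in *Sting*-deficient mice. The probe detects the transcript and does not distinguish the point mutation, and *Sting1* levels of the 4 groups overlapped.

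Kidney identity was checked with 10 tubule markers, of which all 10 were well above background on all 16 arrays, *Kap* being the brightest. The podocyte markers *Nphs1*, *Podxl* and *Wt1* were above background on all 16 arrays as well. In whole kidney RNA, fewer cells of a type and less RNA per cell cannot be told apart.

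Promoters of 7 members were in the RefSeq table (build GRCm38.p6), with 8 windows in all because *Gbp3* has 2 of them, each from 250 bases before to 50 bases after the start. Entries for *Gbp4*, *Gbp6* and *Iigp1* were missing. Promoters are shown because the members varied together across mice of the same genotype. Each window was searched on both strands for the core of the interferon-stimulated response element, GAAANNGAAA (TTTCNNTTTC on the other strand), and for the gamma-activated site TTCNNNGAA, which reads the same on both strands. The response element core was in 7 of the 8 member windows and 3.44% of 32851 promoters, and the gamma-activated site was in 4 of the 8 and 8.3%. All 7 genes had the core, *Gbp7*, *Igtp*, *Irgm2* and *Tgtp1* had the gamma-activated site as well, and 0.454% of all promoters held both. In *Igtp*, *Irgm2* and *Tgtp1* the motifs lay 2 bases apart, with the core starting 34, 64 and 77 bases before the start. Among 9 promoters of related GTPases outside the members, 6 had the core and 4 had the gamma-activated site. A match describes the letters only. The 4 windows printed, all on the plus strand and with matches in capitals, are the *Gbp3* window with 2 cores (chr3:142559794-142560093), *Gbp7* (chr3:142530086-142530385), *Igtp* (chr11:58199306-58199605) and *Irgm2* (chr11:58214727-58215026), chosen to show a core alone, both motifs apart, and both side by side.
Gbp3: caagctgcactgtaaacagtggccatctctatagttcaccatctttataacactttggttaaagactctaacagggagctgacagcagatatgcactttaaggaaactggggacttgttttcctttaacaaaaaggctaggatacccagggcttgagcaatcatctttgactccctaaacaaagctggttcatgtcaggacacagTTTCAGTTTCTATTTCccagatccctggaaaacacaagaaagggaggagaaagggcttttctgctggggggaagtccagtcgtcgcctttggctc
Gbp7: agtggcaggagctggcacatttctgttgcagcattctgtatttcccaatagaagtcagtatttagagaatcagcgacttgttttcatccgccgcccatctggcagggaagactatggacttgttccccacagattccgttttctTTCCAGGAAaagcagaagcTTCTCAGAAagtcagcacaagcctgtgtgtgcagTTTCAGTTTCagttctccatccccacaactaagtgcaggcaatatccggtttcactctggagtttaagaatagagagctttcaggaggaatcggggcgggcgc
Igtp: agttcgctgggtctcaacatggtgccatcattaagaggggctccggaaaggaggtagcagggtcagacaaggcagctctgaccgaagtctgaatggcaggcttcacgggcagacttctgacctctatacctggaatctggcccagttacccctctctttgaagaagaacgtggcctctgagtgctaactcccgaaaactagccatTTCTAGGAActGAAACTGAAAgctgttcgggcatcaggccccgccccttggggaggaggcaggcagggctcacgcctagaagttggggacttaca
Irgm2: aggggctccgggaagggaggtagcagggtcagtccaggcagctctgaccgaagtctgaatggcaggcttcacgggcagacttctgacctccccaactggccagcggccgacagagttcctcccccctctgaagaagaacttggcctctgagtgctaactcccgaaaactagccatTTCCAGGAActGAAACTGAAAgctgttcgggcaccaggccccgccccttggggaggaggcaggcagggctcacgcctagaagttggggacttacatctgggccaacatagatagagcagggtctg

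*Gbp2*, *Gbp3* and *Gbp7* lie in a cluster on chromosome 3. *Gbp2*, which gathers on parasite vacuoles, had a log2 level (probe A_51_P203955) of 2.16, −0.21, 0.47 and 0.26 in wild-type mice 1 to 4, 2.93, −0.25, −0.64 and 1.87 in *Fcgr2b*-deficient mice, 0.017, 1.53, 0.55 and −0.63 in double-deficient mice, and 1.51, 0.15, 0.38 and −0.50 in *Sting*-deficient mice. Mice 1 and 4 were high and mice 2 and 3 low among *Fcgr2b*-deficient mice, and all 6 pairs of groups overlapped. *Gbp2* was higher by 0.31 (SE 0.75) log2 in *Fcgr2b*-deficient than in wild-type mice, with a 95% interval of −1.30 to 1.91, and the double-deficient level relative to *Fcgr2b*-deficient was −0.61 (SE 0.75) log2, with an interval of −2.22 to 0.997. Log2 *Gbp3* level (probe A_51_P165244) was 1.43, −1.41, 2.18 and 1.38 in wild-type mice 1 to 4, 2.88, 1.90, −0.96 and 2.37 in *Fcgr2b*-deficient mice, 1.87, 0.53, 1.70 and −1.32 in double-deficient mice, and 2.91, 1.89, −0.56 and 1.84 in *Sting*-deficient mice. Wild-type mouse 2, *Fcgr2b*-deficient mouse 3, double-deficient mouse 4 and *Sting*-deficient mouse 3 were the low mice of their groups, and the groups overlapped. *Gbp3* had the largest differences of the members in both comparisons, 0.65 (SE 0.996) log2 for *Fcgr2b*-deficient against wild-type and −0.85 (SE 0.996) log2 for double-deficient against *Fcgr2b*-deficient mice, both below their SE. *Gbp7*, which assists the assembly of the phagocyte oxidase, ranged from −3.42 in wild-type mouse 2 to −0.22 in *Fcgr2b*-deficient mouse 1. Its largest difference from wild-type was 0.50 (SE 0.62) log2 in *Sting*-deficient mice.

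*Gbp4* and *Gbp6* lie on chromosome 5, and both belong to the guanylate-binding proteins induced by interferon gamma. Log2 *Gbp4* level (probe A_55_P2103837) ranged from −3.24 in wild-type mouse 2 to 1.21 in *Fcgr2b*-deficient mouse 1, and was 0.57, −3.24, −2.67 and −1.91 in wild-type mice. The *Gbp6* probe, whose target is nearly identical to *Gbp10*, ranged from −3.46 in double-deficient mouse 4 to 0.23 in *Fcgr2b*-deficient mouse 1. For either gene all 6 pairs of groups overlapped, and wild-type mouse 1 was the highest of the wild-type mice. The *Gbp4* difference between *Sting*-deficient and wild-type mice was 0.71 (SE 0.92) log2, and the *Gbp6* difference between double-deficient and wild-type mice was −0.75 (SE 0.76) log2.

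Among immunity-related GTPases, *Irgm1*, *Irgm2* and *Igtp* (also called *Irgm3*) encode regulators that hold the effector GTPases inactive on the cell's own membranes. Log2 *Igtp* level (probe A_51_P112355) was 2.67, 1.84, 2.47 and 2.06 in wild-type mice 1 to 4, 3.24, 1.76, 1.16 and 2.97 in *Fcgr2b*-deficient mice, 1.36, 2.19, 2.30 and 0.78 in double-deficient mice, and 2.103, 1.91, 1.29 and 1.09 in *Sting*-deficient mice. Log2 *Irgm2* level (probe A_51_P416295) was 1.74, 0.82, 1.75 and 1.61 in wild-type mice 1 to 4, 2.92, 1.41, 1.06 and 2.51 in *Fcgr2b*-deficient mice, 1.15, 1.14, 1.97 and 0.74 in double-deficient mice, and 1.87, 1.37, 0.98 and 0.76 in *Sting*-deficient mice. For these neighbors on chromosome 11, *Fcgr2b*-deficient mice 1 and 4 were the highest of all 16 mice and *Fcgr2b*-deficient mouse 3 was below the wild-type range for *Igtp* and within it for *Irgm2*, so groups overlapped. The spread of the 4 genotype means of *Irgm2*, 0.73 log2, exceeded the pooled SD within genotypes, 0.61, whereas for the other 8 members it was smaller than that SD. The difference of *Irgm2* between double-deficient and *Fcgr2b*-deficient mice was −0.72 (SE 0.41) log2, and that of *Igtp* was −0.62 (SE 0.46) log2. *Irgm1* (probe A_51_P262171) ranged from 1.04 in double-deficient mouse 4 to 2.85 in *Fcgr2b*-deficient mouse 1. Its 3 probes gave −0.076, −0.16 and −0.095 log2 for *Fcgr2b*-deficient against wild-type mice.

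The effector *Iigp1* attacks the membrane around intracellular parasites. Its log2 level (probe A_51_P387239) was 3.03, 0.39, 1.27 and 1.26 in wild-type mice 1 to 4, 4.17, −0.15, −0.12 and 2.79 in *Fcgr2b*-deficient mice, 0.49, 2.12, 1.58 and −0.26 in double-deficient mice, and 2.52, 0.90, 1.096 and 0.66 in *Sting*-deficient mice. *Fcgr2b*-deficient mice covered the widest range, mice 1 and 4 being above all double-deficient mice and mice 2 and 3 below every wild-type mouse, and groups overlapped. The difference was 0.19 (SE 0.89) log2 for *Fcgr2b*-deficient against wild-type and −0.69 (SE 0.89) log2 for double-deficient against *Fcgr2b*-deficient mice. *Tgtp1*, another effector, could not be measured. A probe for the nearly identical *Tgtp2* was present, which cannot stand for *Tgtp1*, and its level was 5.32 in *Fcgr2b*-deficient mouse 1 and 1.66 in double-deficient mouse 4, the ends of its range.

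**Figure D1:**
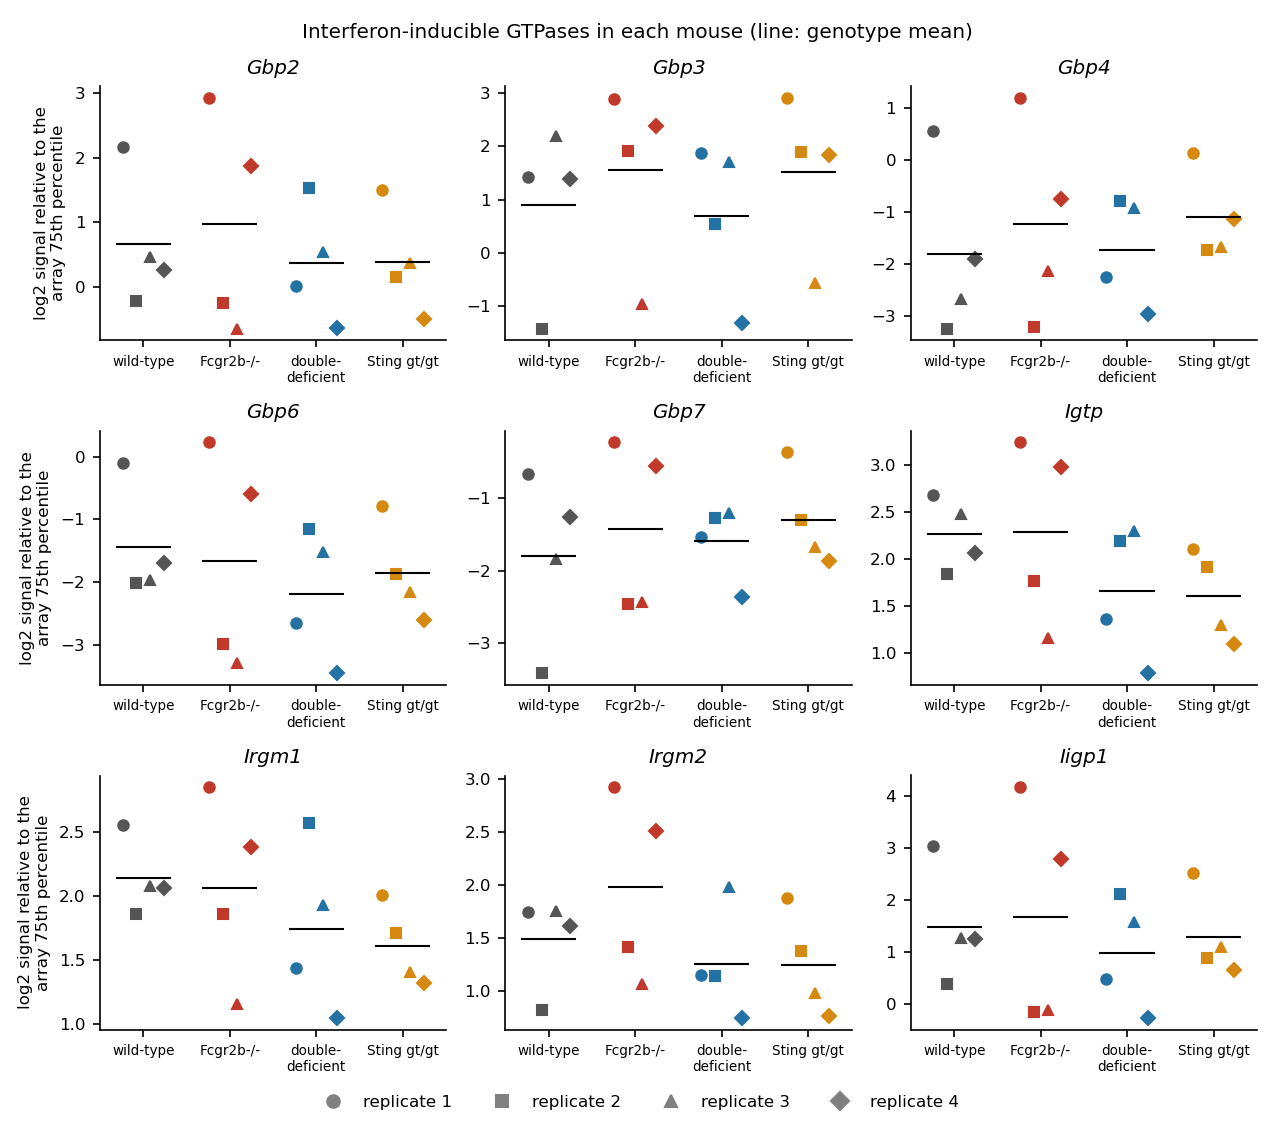
Log2 level of each member against the 75th percentile of its array (y axis) in each of 16 mice, grouped by genotype (x axis), where points are mice and lines are genotype means. The groups overlap for each of the 9 members, and *Fcgr2b*-deficient mice 1 and 4 lie above *Fcgr2b*-deficient mice 2 and 3.

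The order of genotype means was highest in *Fcgr2b*-deficient mice for 5 members, in wild-type mice for 2 and in *Sting*-deficient mice for 2, and lowest in double-deficient mice for 4, *Sting*-deficient mice for 3 and wild-type mice for 2. For all 9 members neighbors in this order differed by less than the pooled SD within genotypes, as did the highest and lowest genotypes for 8 members, the exception being *Irgm2*, which did not pass the test. That SD describes single mice, which vary more than group means, so this comparison does not test for a genotype effect. Levels also varied between mice of the same genotype. The median of the 9 members relative to the wild-type means was 1.13, −0.88, −0.063 and −0.098 log2 in wild-type mice 1 to 4, 1.68, −0.67, −1.100 and 1.06 in *Fcgr2b*-deficient, −0.65, 0.43, 0.090 and −1.30 in double-deficient and 0.84, −0.35, −0.50 and −0.82 in *Sting*-deficient mice. *Fcgr2b*-deficient mouse 1 was the highest of all 16 mice for 8 of 9 members, the exception being *Gbp3*, which was highest in *Sting*-deficient mouse 1. Of the 9 members, 7 exceeded their wild-type mean by 2-fold or more in *Fcgr2b*-deficient mouse 1, 6 in mouse 4, 1 in mouse 2 and 0 in mouse 3. The number was 5 in wild-type mouse 1, 4 in *Sting*-deficient mouse 1, 1 in wild-type mouse 3 and double-deficient mouse 2, and 0 in the remaining mice. Wild-type mouse 2 and double-deficient mouse 4 were the lowest of their groups for 9 of 9 members.

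**Figure D2:**
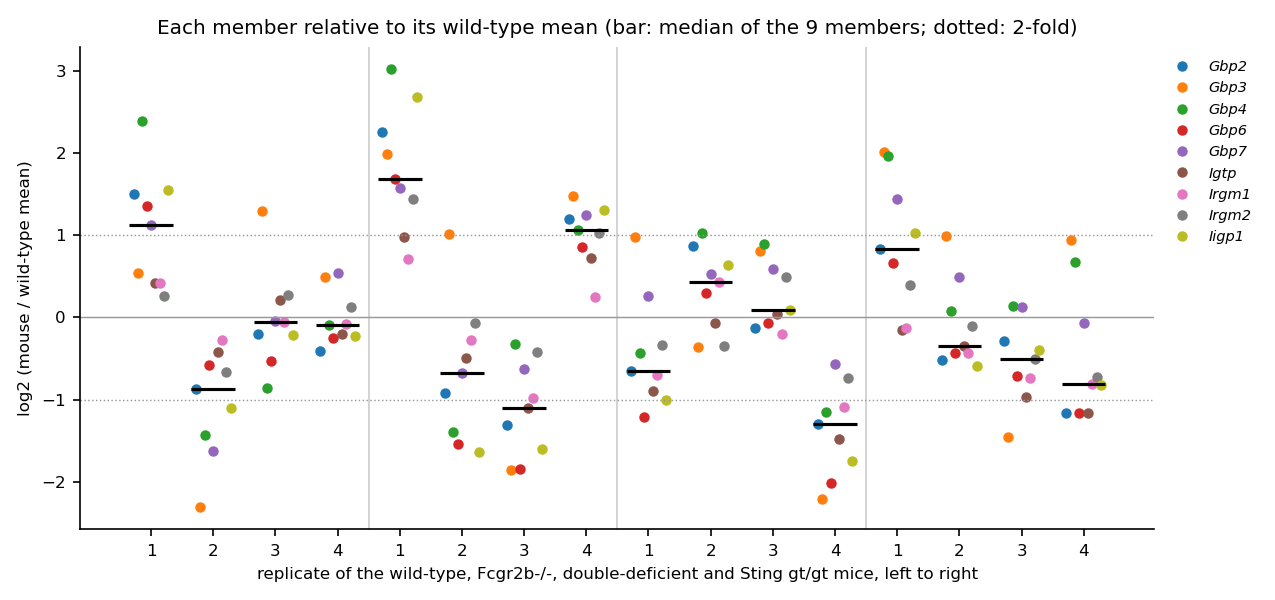
Level of each member relative to its wild-type mean (log2, y axis) in each mouse (x axis, 4 mice per genotype), with a bar for the median of the 9 members and dotted lines at 2-fold. Medians run from −1.30 in double-deficient mouse 4 to 1.68 in *Fcgr2b*-deficient mouse 1.

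To examine whether loss of *Fcgr2b* altered the GTPases, *Fcgr2b*-deficient mice were compared with wild-type mice. Limma called 0 of 9 members at an adjusted p under 0.05 and at least 2-fold, while 0.0449% of the 35629 probes tested were called. At an unadjusted p under 0.05, the count of members was 0 (3.3% of probes), and the exact Mann-Whitney test, here and below at an unadjusted p under 0.05 and at least 2-fold, also called 0 (0.404% of probes). For 0 members the groups did not overlap (1.19% of probes). The direction was higher for 7 of 9 members (44.9% of probes), or 6 with scaling by the array median, by which the median of all probes went from −0.042 to −0.21 log2. The median member difference was 0.31 log2, or 0.14 with that scaling. With slide as a block it was 0.11 log2, and within slides it was 0.54 on slide 1 (3 against 2 mice) and −1.002 on slide 2 (1 against 2 mice), so the direction differed between slides. The median changed sign without *Fcgr2b*-deficient mouse 1, to −0.29 log2, and without wild-type mouse 2, to −0.12 log2, and it was 0.78 log2 without *Fcgr2b*-deficient mouse 3.

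Whether loss of *Sting* altered them on the *Fcgr2b*-deficient background was asked by comparing double-deficient with *Fcgr2b*-deficient mice. Limma called 0 of 9 members (0% of probes), 0 had an unadjusted p under 0.05 (1.75%), the Mann-Whitney test called 0 (0.107%), and for 0 the groups did not overlap (1.02%). All 9 members had a lower mean in double-deficient mice (43.8% of probes), also with scaling by the array median, by which the median of all probes went from 0.046 to 0.095 log2. The median difference was −0.61 log2 (−0.56 with that scaling), with a range of −0.85 for *Gbp3* to −0.17 for *Gbp7*, and every member's interval held 0. With slide as a block the median was −0.23 log2, and *Gbp7* was at 0.043. The direction was opposite between slides, −1.29 on slide 1 (1 against 3 mice) and 0.82 on slide 2 (3 against 1 mice). Without *Fcgr2b*-deficient mouse 1 the median was 0.040 log2, with 5 members higher and 4 lower, and without *Fcgr2b*-deficient mouse 3 it was −1.03 log2. Both comparisons use the same *Fcgr2b*-deficient mice, so their signs are not independent. The members also varied together across mice, so their signs within any comparison are not separate observations.

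Double-deficient mice were also compared with wild-type mice. Limma called 0 of 9 members (0%), 0 had an unadjusted p under 0.05 (0.418%), the Mann-Whitney test called 0 (0.163%), and for 0 the groups did not overlap (0.547%). Of the 9, 7 had a lower mean (48.7% of probes), 8 with scaling by the array median (all probes 0.0062 and −0.11 log2), and the median was −0.30 log2, or −0.42 with that scaling. It was −0.15 log2 with slide as a block, −0.89 on slide 1 (1 against 2 mice) and −0.21 on slide 2 (3 against 2 mice). Without wild-type mouse 1 the median was −0.020 and without double-deficient mouse 2 it was −0.67 log2.

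Loss of *Sting* alone was examined by comparing *Sting*-deficient with wild-type mice, which share the C57BL/6 background. Limma called 0 of 9 members (0%), 0 had an unadjusted p under 0.05 (3.73%), the Mann-Whitney test called 0 (0.328%), and for 0 the groups did not overlap (1.99%). A lower mean was seen for 6 of 9 members (48.7% of probes), and for 6 with scaling by the array median (all probes 0.017 and −0.24 log2), and the median was −0.24 log2, or −0.50 with that scaling. The median was −0.24 log2 with slide as a block, −0.0019 on slide 1 and −0.55 on slide 2 (2 against 2 mice each). The sign changed without wild-type mouse 1, to 0.21 log2, and without *Sting*-deficient mouse 4, to 0.0092 log2, and the median was −0.60 log2 without *Sting*-deficient mouse 1. *Gbp3*, *Gbp4* and *Gbp7* had a higher mean and the other 6 a lower mean, and all intervals held 0.

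Loss of *Fcgr2b* where *Sting* is also absent was examined between double-deficient and *Sting*-deficient mice. Limma called 0 of 9 members (0%), 0 had an unadjusted p under 0.05 (3.06%), the Mann-Whitney test called 0 (0.474%), and for 0 the groups did not overlap (2.11%). The mean was lower for 6 of 9 (50.2% of probes), or 5 with scaling by the array median (all probes −0.0014 and 0.14 log2). The median was −0.29 log2, −0.16 with that scaling, −0.12 with slide as a block, −0.70 on slide 1 (1 against 2 mice) and 0.34 on slide 2 (3 against 2 mice). Its sign changed without double-deficient mouse 4, to 0.10 log2, and without *Sting*-deficient mouse 1, to 0.095 log2, and without *Sting*-deficient mouse 4 it was −0.48 log2.

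The interaction of *Fcgr2b* and *Sting* tested whether the effect of *Sting* loss differed between the backgrounds. Limma called 0 of 9 members (0%), and 0 had an unadjusted p under 0.05 (6.23%). The Mann-Whitney test has no interaction form. The estimate was negative for 7 of 9 members (49.4% of probes), or 6 with scaling by the array median (all probes 0.0093 and 0.32 log2), with a median of −0.49 log2, −0.18 with that scaling, and −0.13 with slide as a block. For *Gbp3* it was −1.48 (SE 1.41) and for *Gbp4* −1.22 (SE 1.30) log2, with intervals of −4.47 to 1.52 and −3.996 to 1.56. Without *Fcgr2b*-deficient mouse 1 the median was 0.33 and without *Fcgr2b*-deficient mouse 3 it was −0.86 log2. With all 6 comparisons sharing mice, their counts are not independent.

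**Figure D3:**
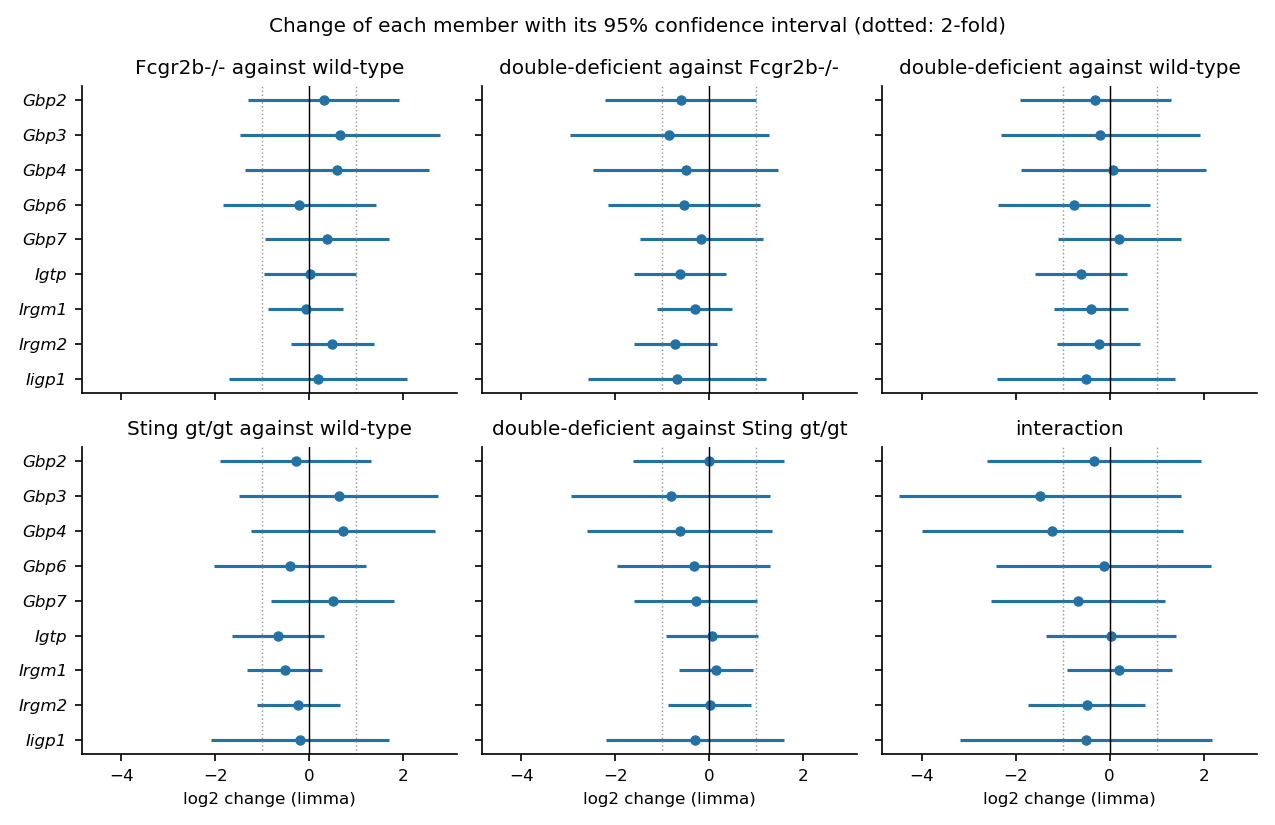
Limma log2 change of each of 9 members (points) with its 95% confidence interval (lines, x axis) in the 6 comparisons, with dotted lines at 2-fold. Each interval holds 0. In double-deficient against *Fcgr2b*-deficient mice all 9 points lie below 0, also with scaling by the array median, but without *Fcgr2b*-deficient mouse 1, 5 were above 0 and 4 below.

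Genes around the members were read from lists, of which 0 genes passed the limma test in any of the 6 comparisons. Among 5 other guanylate-binding proteins with a probe, 0 had an unadjusted p under 0.05 for *Fcgr2b*-deficient against wild-type mice (3.3% of probes), with a median of −0.015 log2. In that comparison and then in double-deficient against *Fcgr2b*-deficient mice, *Gbp5* was at 1.01 and −0.79 log2 and *Gbp10* at −0.097 and 0.13. *Gbp8* was above background on 11 of 16 arrays, 2 of them wild-type, and no difference is given for it, though medians of lists include such dim genes. *Gbp11* had no probe. The same order of comparisons holds for the pairs of values that follow. In the second comparison the list had 0 (1.75% of probes) and a median of −0.41. The first and second medians of this list are the values of dim genes, *Gbp9* (above background on 11 of 16 arrays) and *Gbp2b* (5 of 16 arrays). Other immunity-related GTPases (7 tested of 10) had 0 and 0, with medians of 0.44 and −0.46, and with *Ifi47* at 0.72 and −0.93 and *Gm12250* at 0.51 and −0.46 log2, while *Gm5431* was above background on 13 of 16 arrays, 2 of them wild-type. Of the very large GTPases and Mx genes, only *Gvin1* had a probe, at 0.80 and −0.63 log2, while *Gvin2*, *Gvin3*, *Mx1* and *Mx2* had none.

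Upstream of the GTPases, the ligand gene *Ifng* was above background on 7 of 16 arrays (1 wild-type, 2 *Fcgr2b*-deficient, 2 double-deficient and 2 *Sting*-deficient), too few for a difference to be given. Of the receptor genes, *Ifngr1* was at 0.60 and −0.55 log2 and *Ifngr2* at 0.39 and −0.26. Of the 3 ligand and receptor genes, 0 had an unadjusted p under 0.05 in either comparison (3.3% and 1.75% of probes). In the signaling list (7 genes), 1 gene had an unadjusted p under 0.05 for *Fcgr2b*-deficient against wild-type mice (3.3% of probes), the feedback inhibitor *Socs3* at 2.51 (SE 0.71) log2, limma adjusted p 0.725. In double-deficient against *Fcgr2b*-deficient mice 2 had (1.75% of probes), *Socs3* at −1.70 (SE 0.71) and the inhibitor *Socs1* at −0.998 (SE 0.46) log2, both lower. Of the factors that carry the signal and its inhibitor, *Irf1* was at 0.64 and −0.62 log2, *Irf8* at 0.94 and −0.80, and *Socs1* at 0.87 and −0.998. Of 11 interferon gamma targets tested, 1 and 0 had an unadjusted p under 0.05 (3.3% and 1.75% of probes), with medians of 0.87 and −0.88 log2. Among them, *Ciita* was at 1.04 and −1.02 log2, *Cxcl10* at 1.09 and −0.92, and *Nlrc5* at 1.104 and −1.01. *Cxcl11* had no probe.

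For type I interferons, *Ifnb1* and *Ifna4* were above background on 0 of 16 arrays. Of their receptor genes, *Ifnar1* was at 0.23 and 0.095 log2 and *Ifnar2* at 0.28 and −0.19. Of 5 signaling genes, 1 had an unadjusted p under 0.05 in either comparison (3.3% and 1.75% of probes). This was *Irf7*, at 1.23 (SE 0.51) log2 for *Fcgr2b*-deficient against wild-type and −1.43 (SE 0.51) log2 for double-deficient against *Fcgr2b*-deficient mice. In the same list, *Irf9* was at 0.73 and −0.74 log2 and *Stat2* at 0.77 and −0.78. Of 15 type I target genes, 4 had an unadjusted p under 0.05 in the first comparison (3.3% of probes) and 4 in the second (1.75%). All 15 differences were positive in the former (44.9% of probes) and negative in the latter (43.8%). The medians were 0.94 and −0.86 log2, beside 0.31 and −0.61 log2 for the GTPases. The lists were not tested against each other, and only the members' medians were read by slide, with other scaling and without single mice. Among the targets, *Oas1a* was at 1.88 and −1.75 log2, *Oas2* at 2.28 and −1.91, and *Oasl2* at 1.61 and −1.34. In *Sting*-deficient against wild-type mice 0 of 15 had an unadjusted p under 0.05 (3.73% of probes), with a median of 0.57 log2. There 14 of the 15 were higher (51.3% of probes) and 1 was lower.

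The autophagy conjugation partners had 0 of 11 at an unadjusted p under 0.05 in either comparison (3.3% and 1.75% of probes), with medians of −0.17 and 0.17 log2. In this list, *Atg3* was at −0.37 and 0.21 log2, *Atg5* at −0.33 and 0.24, and *Gabarapl1* at −0.31 and 0.26. Inflammasome partners had 1 and 0 of 6 at an unadjusted p under 0.05 (3.3% and 1.75% of probes) and medians of 1.55 and −0.92 log2. The 1 gene had a limma unadjusted p of 0.0499. Of the caspases, *Casp1* was at 1.79 and −1.27 log2 and *Casp4* at 1.95 and −1.099, and the sensor *Aim2* was above background on 11 of 16 arrays, 2 of them wild-type.

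**Figure D4:**
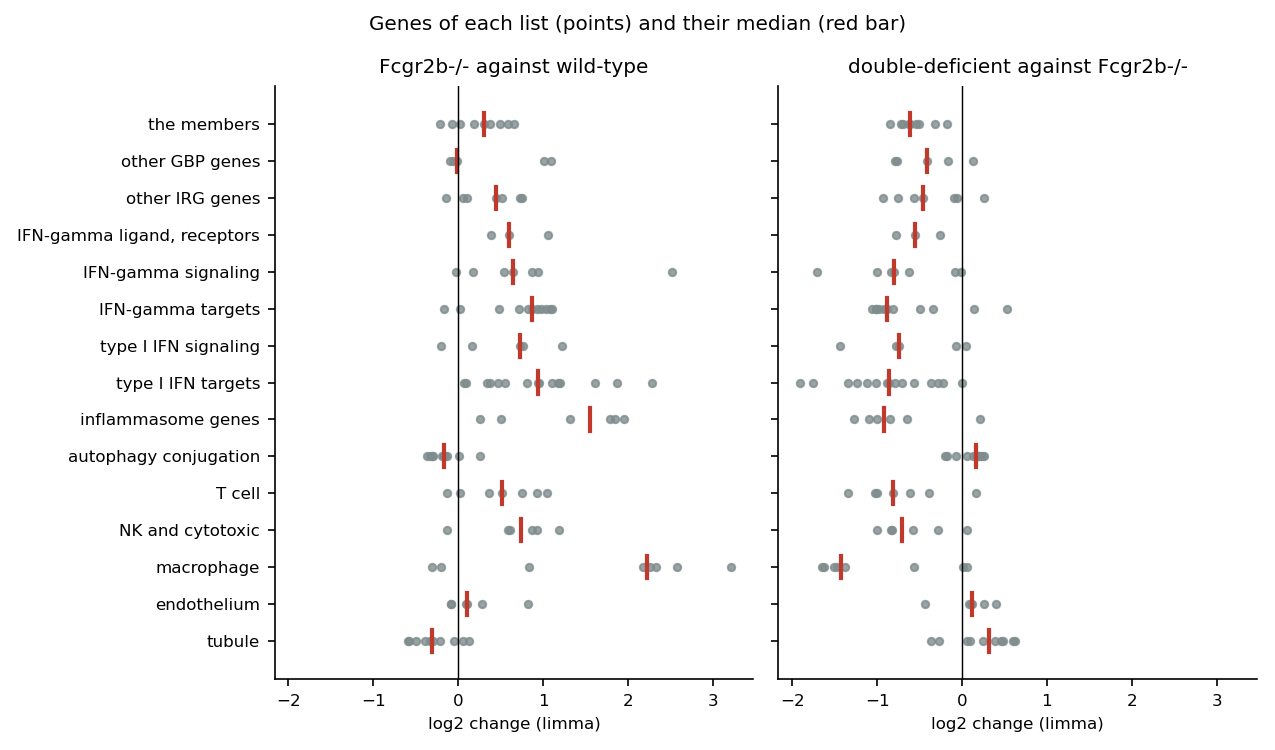
Limma log2 change (x axis) of the genes of each list (points) with the median of the list (red bar), by comparison. The median of the type I interferon targets was 0.94 log2 for *Fcgr2b*-deficient against wild-type mice and that of the members was 0.31 log2, and this difference was not tested.

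The members varied together within genotypes. After each genotype's mean was removed, the 36 pairs of members had Pearson r between 0.51 (*Gbp3* with *Gbp4*) and 0.98 (*Gbp2* with *Iigp1*) over 16 mice, with a median of 0.87, and Spearman rho between 0.55 and 0.98. The mean of the 9 members was then compared with each of 16384 named genes, and no p is given because the genes are described for being the most alike. The 10 most alike were *Psmb9*, *Irf9*, *Calhm6*, *Irf8*, *Gpx7*, *Usp18*, *H2-M3*, *F2rl3*, *Ms4a4b* and *Tgtp2*, with r from 0.97 to 0.98 and Spearman rho from 0.95 to 0.99. Without *Fcgr2b*-deficient mice 1 and 3, the farthest from the median, r lay between 0.95 and 0.97 (14 mice). On slide 1 it was 0.97 to 0.99 and on slide 2 0.92 to 0.99 (8 mice each). Of all named genes 26.0% had an r over 0.5, with a median of −0.063. By list, the median r was 0.89 for type I interferon targets, 0.90 for interferon gamma targets, 0.92 for interferon gamma signaling, 0.90 for inflammasome partners, and −0.51 for autophagy partners. Array brightness, the log2 75th percentile, had an r of 0.40 with the member mean, rho 0.41, r 0.51 without the same 2 mice, 0.65 on slide 1 and −0.094 on slide 2. The number of probes above background had an r of 0.64 with the member mean, rho 0.67, r 0.72 without the same 2 mice, 0.86 on slide 1 and 0.20 on slide 2, and their part in the result was not tested.

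**Figure D5:**
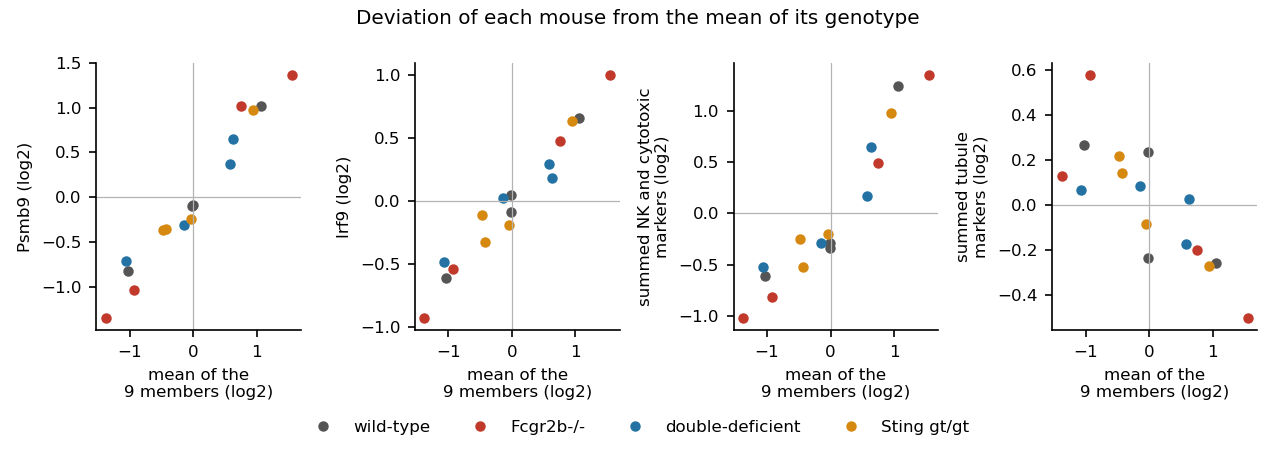
Deviation of each mouse from its genotype mean (log2) for genes or marker lists (y axes) against the mean of the 9 members (x axes), points being 16 mice colored by genotype. Mice that were high for the members were high for the most alike gene, *Psmb9*, with an r of 0.98.

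Markers of other cell types were read beside these results, as sums over each list in multiples of the 75th percentile of the array, in which a bright marker weighs most. Natural killer and cytotoxic markers were read as a single list, called natural killer below. Its sum had an r of 0.95 with the member mean, rho 0.92, r 0.92 without *Fcgr2b*-deficient mice 1 and 3, 0.97 on slide 1 and 0.90 on slide 2. Taken singly, 4 of 6 markers had an r over 0.5, against 0.33 for *Klrb1c* and 0.21 for *Prf1*, so the sum does not stand for natural killer cells alone. Of this list, 6 of 7 were tested, *Nkg7* being the brightest and *Ncr1* above background on 2 of 16 arrays. Their sum was 2.78, 0.768, 0.928 and 0.962 in wild-type mice 1 to 4, 4.66, 1.04, 0.904 and 2.57 in *Fcgr2b*-deficient mice, 0.984, 1.88, 1.35 and 0.842 in double-deficient mice, and 2.23, 0.988, 0.956 and 0.789 in *Sting*-deficient mice. B-cell markers (5 of 6 tested, *Jchain* brightest, *Cd79a* above background on 0 of 16 arrays, r 0.74 with the member mean, rho 0.77, r 0.67 without *Fcgr2b*-deficient mice 1 and 3, 0.77 on slide 1 and 0.59 on slide 2) summed to 14.2, 0.611, 0.560 and 1.75 in wild-type mice 1 to 4, 5.72, 1.48, 0.815 and 2.31 in *Fcgr2b*-deficient mice, 0.969, 5.58, 1.51 and 1.24 in double-deficient mice, and 4.21, 5.07, 2.49 and 2.43 in *Sting*-deficient mice. *Fcgr2b*-deficient mouse 1 had the highest natural killer sum and wild-type mouse 1 the highest B-cell sum. Neutrophil markers (3 of 4 with a probe, *S100a9* brightest, *Ly6g* absent, r 0.71 with the member mean, rho 0.55, r 0.63 without *Fcgr2b*-deficient mice 1 and 3, 0.88 on slide 1 and 0.26 on slide 2) summed to 6.17, 1.16, 0.985 and 0.820 in wild-type mice 1 to 4, 23.1, 0.805, 2.58 and 5.65 in *Fcgr2b*-deficient mice, 1.26, 2.71, 2.51 and 1.90 in double-deficient mice, and 2.24, 0.420, 2.27 and 0.580 in *Sting*-deficient mice. Endothelial markers (6 of 6 tested, *Emcn* brightest, r 0.75 with the member mean, rho 0.73, r 0.78 without *Fcgr2b*-deficient mice 1 and 3, 0.87 on slide 1 and 0.45 on slide 2) summed to 94.4, 10.5, 13.9 and 19.2 in wild-type mice 1 to 4, 46.994, 13.2, 20.7 and 27.6 in *Fcgr2b*-deficient mice, 21.5, 51.6, 24.7 and 20.1 in double-deficient mice, and 73.022, 25.9, 46.5 and 32.8 in *Sting*-deficient mice. Wild-type mouse 1 had the highest endothelial sum, and *Fcgr2b*-deficient mouse 1 the highest neutrophil sum. Tubule markers (10 of 10 tested, r −0.80 with the member mean, rho −0.80, r −0.78 without *Fcgr2b*-deficient mice 1 and 3, −0.95 on slide 1 and −0.45 on slide 2) summed to 1109, 1595, 1563 and 1126 in wild-type mice 1 to 4, 818, 1732, 1270 and 1008 in *Fcgr2b*-deficient mice, 1353, 1300, 1130 and 1334 in double-deficient mice, and 1027, 1169, 1438 and 1365 in *Sting*-deficient mice. Their part in the result was not tested.

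Macrophage markers (8 of 8 tested, *Ly6c2* brightest, r 0.33 with the member mean, rho 0.26, r 0.25 without *Fcgr2b*-deficient mice 1 and 3, 0.52 on slide 1 and 0.13 on slide 2) summed to 293, 214, 136 and 126 in wild-type mice 1 to 4, 245, 159, 166 and 204 in *Fcgr2b*-deficient mice, 140, 316, 118 and 162 in double-deficient mice, and 188, 127, 182 and 254 in *Sting*-deficient mice. Of the 8, 6 had an unadjusted p under 0.05 for *Fcgr2b*-deficient against wild-type mice (3.3% of probes) and 4 had groups that did not overlap (1.19% of probes), with a median of 2.22 log2, whereas 0 of 9 GTPases did either. This difference between the lists was not tested. In double-deficient against *Fcgr2b*-deficient mice, 4 of the 8 had an unadjusted p under 0.05 (1.75% of probes), all lower, and 1 had groups that did not overlap (1.02% of probes), with a median of −1.43 log2. For *Fcgr2b*-deficient against wild-type mice, 6 of the 8 were higher and 2 lower, *Itgam* at −0.30 (SE 0.58) and *Ly6c2* at −0.20 (SE 0.38) log2. *Adgre1*, *Cd68* and *Lyz2*, with the largest differences, were at 2.57 (SE 0.79), 2.32 (SE 0.49) and 3.22 (SE 0.80) log2, with limma adjusted p of 0.874, 0.229 and 0.499. T-cell markers (7 of 7 tested, *Cd4* brightest, r 0.26 with the member mean, rho 0.13, r −0.30 without *Fcgr2b*-deficient mice 1 and 3, 0.14 on slide 1 and 0.33 on slide 2) ranged from 5.86 in *Sting*-deficient mouse 2 to 11.6 in *Fcgr2b*-deficient mouse 1, and dendritic markers (5 of 6 tested, *Siglech* brightest, *Xcr1* above background on 2 of 16 arrays, r 0.035 with the member mean, rho 0.068, r 0.099 without *Fcgr2b*-deficient mice 1 and 3, 0.72 on slide 1 and −0.097 on slide 2) from 48.985 in *Fcgr2b*-deficient mouse 2 to 268 in *Sting*-deficient mouse 4. The sums of the macrophage, T-cell and dendritic lists give most weight to their brightest markers, and most single markers had a higher r than the sum. Taken singly, macrophage markers had a median r of 0.84 with the member mean, 5 of 8 being over 0.5, against 0.29 for *Ly6c2*. T-cell markers had a median of 0.91 (5 of 7 over 0.5), against −0.85 for *Cd4*, and dendritic markers 0.83 (4 of 5), against −0.0014 for *Siglech*. Whether the probes of *Ly6c2*, *Cd4* and *Siglech* follow the number of these cells was not tested, so the 3 sums may not measure them. The median r of single markers was 0.86 for natural killer (4 of 6 over 0.5), 0.62 for B-cell (3 of 5), 0.72 for neutrophil (3 of 3), 0.77 for endothelial (6 of 6) and −0.49 for tubule markers (0 of 10). At an unadjusted p under 0.05 (3.3% and 1.75% of probes), *Itgax* was the single dendritic marker of 5 in both comparisons. It was at 2.53 (SE 0.76) log2 for *Fcgr2b*-deficient against wild-type and −1.66 (SE 0.76) log2 for double-deficient against *Fcgr2b*-deficient mice. In both comparisons the T-cell, natural killer, B-cell, neutrophil, endothelial and tubule lists had 0. The part of these cells in the GTPase levels was not tested.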

How the data were processed

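The authors deposited scanner files with Agilent Feature Extraction 11.0 processed spot intensity, background-subtracted and not scaled between arrays, and a table of log2 values whose processing is not stated. In that table, arrays of the same replicate number shared a distribution, with medians of 5.54, 4.93, 5.145 and 5.384 for numbers 1 to 4, and each column was closest to its own array. Log2 intensity minus the log2 75th percentile over non-control spots was computed, and spots of a probe were averaged (Python 3.11.15, pandas 2.3.3, numpy 2.4.6, scipy 1.17.1, matplotlib 3.10.9). Control and outlier spots (76 to 109 per array) were left out, and 0 spots were saturated. A gene was its probe with the highest mean. Limma 3.58.1, run in R 4.3.3 with statmod 1.5.0, tested the 35629 probes above background on at least 4 arrays, with 1 mean per genotype, Benjamini-Hochberg over all of them, with a two-tailed test. Members and lists were chosen with earlier results of these data known. Named genes were the members, genes passing the test, the interferon ligands, receptors, *Irf1* and *Socs1*, up to 3 genes per list with the largest change in *Fcgr2b*-deficient against wild-type mice, and the 10 genes most alike to the member mean. Results that need some other listed genes are not reported here. Alternatives were normexp (offset 50, on the median spot signal), quantile or median scaling, the authors' table, other filters, other fits, blocks by slide, replicate number or animal label, the exact Mann-Whitney test, no fold threshold, probe medians, leaving out each array, and, chosen after seeing the data, the 75th percentile over probes.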

Additional observations from a re-analysis of the deposited data

Results flagged for a closer look

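Mice far from the other 3 of their group were looked for, which chance gives in about 1 in 20 groups, and 2 of 36 member groups and 15 of 300 groups of the other listed genes had such a mouse, markers of cell types not being examined. Log2 *Gbp6* level was −0.095 against −2.02 to −1.69 in the other 3 mice for wild-type mouse 1. Log2 *Irgm2* level was 0.82 against 1.61 to 1.75 in the other 3 mice for wild-type mouse 2. Of the 15 groups, 8 had *Sting*-deficient mouse 1 as the distant mouse and 4 had wild-type mouse 1, and why was not tested. For *Sting*-deficient mouse 1, *Irf8* was 1.62 against 0.47 to 0.59 in the other 3 mice, *Psmb9* was 1.81 against 0.46 to 0.59 in the other 3 mice, and *Usp18* was 0.11 against −1.43 to −1.31 in the other 3 mice. *Oas2* was −1.46 against −2.68 to −2.53 in the other 3 mice for double-deficient mouse 3. *Atg5* was 1.38 against 2.28 to 2.46 in the other 3 mice for *Sting*-deficient mouse 4. *Gabarapl1* was 7.03 against 8.22 to 8.43 in the other 3 mice for wild-type mouse 1 and 7.49 against 8.02 to 8.07 in the other 3 mice for *Sting*-deficient mouse 1.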

How the results depend on the processing

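In all 30 alternative settings that used limma, of which the fit of only the groups compared gives no interaction, 0 of 9 members passed the test in the 6 comparisons, the smallest adjusted p of a member being 0.433. The Mann-Whitney test, which has no interaction, called 0 unadjusted, which follows from the overlap of the groups. With 4 against 4 mice its adjusted form could call no probe and says nothing. Of 432 member values in the 8 settings that alter log2 differences, 23 changed sign, and of 864 leaving out arrays, 78. With normexp, the log2 difference changed sign for *Gbp4* to −0.067 (double-deficient against wild-type). With quantile normalization, the log2 difference changed sign for *Irgm1* to 0.034 (*Fcgr2b*-deficient against wild-type), *Gbp2* to 0.0052 (double-deficient against *Sting*-deficient), *Irgm2* to −0.030 (double-deficient against *Sting*-deficient), *Gbp6* to 0.031 (the interaction) and *Igtp* to −0.12 (the interaction). With array-median scaling, the log2 difference changed sign for *Igtp* to −0.15 (*Fcgr2b*-deficient against wild-type), *Gbp4* to −0.039 (double-deficient against wild-type), *Gbp2* to 0.12 (double-deficient against *Sting*-deficient) and *Gbp6* to 0.18 (the interaction). With the authors' table, the log2 difference changed sign for *Irgm1* to 0.025 (*Fcgr2b*-deficient against wild-type), *Gbp2* to 0.024 (double-deficient against *Sting*-deficient), *Irgm2* to −0.021 (double-deficient against *Sting*-deficient), *Gbp6* to 0.066 (the interaction) and *Igtp* to −0.085 (the interaction). With slide as a block, the log2 difference changed sign for *Igtp* to −0.093 (*Fcgr2b*-deficient against wild-type), *Gbp7* to 0.043 (double-deficient against *Fcgr2b*-deficient), *Gbp3* to 0.063 (double-deficient against wild-type), *Gbp2* to 0.18 (double-deficient against *Sting*-deficient), *Gbp2* to 0.071 (the interaction) and *Gbp6* to 0.30 (the interaction). With animal label as a block, the log2 difference changed sign for *Gbp3* to 0.38 (double-deficient against wild-type) and *Gbp2* to 0.080 (double-deficient against *Sting*-deficient). For *Fcgr2b*-deficient against wild-type, leaving out each array gave −0.34 to 0.85 for *Gbp2*, −0.12 to 1.49 for *Gbp3*, −0.22 to 1.39 for *Gbp4*, −0.84 to 0.33 for *Gbp6*, −0.16 to 0.75 for *Gbp7*, −0.29 to 0.40 for *Igtp*, −0.65 to 0.79 for *Iigp1* and −0.34 to 0.23 for *Irgm1* log2. For double-deficient against *Fcgr2b*-deficient, leaving out each array gave −1.15 to 0.040 for *Gbp2*, −1.17 to 0.30 for *Gbp4*, −1.08 to 0.091 for *Gbp6*, −0.52 to 0.22 for *Gbp7* and −1.30 to 0.14 for *Iigp1* log2. For double-deficient against wild-type, leaving out each array gave −0.69 to 0.20 for *Gbp2*, −0.97 to 0.47 for *Gbp3*, −0.40 to 0.88 for *Gbp4*, −0.34 to 0.58 for *Gbp7* and −0.89 to 0.0074 for *Iigp1* log2. For *Sting*-deficient against wild-type, leaving out each array gave −0.66 to 0.21 for *Gbp2*, −0.15 to 1.32 for *Gbp3*, −0.77 to 0.038 for *Gbp6*, −0.045 to 0.87 for *Gbp7* and −0.60 to 0.32 for *Iigp1* log2. For double-deficient against *Sting*-deficient, leaving out each array gave −0.41 to 0.36 for *Gbp2*, −0.68 to 0.084 for *Gbp6*, −0.48 to 0.021 for *Gbp7*, −0.15 to 0.35 for *Igtp*, −0.69 to 0.10 for *Iigp1*, −0.14 to 0.37 for *Irgm1* and −0.24 to 0.21 for *Irgm2* log2. For the interaction, leaving out each array gave −0.86 to 0.33 for *Gbp2*, −0.67 to 0.50 for *Gbp6*, −0.34 to 0.35 for *Igtp*, −1.11 to 0.33 for *Iigp1* and −0.091 to 0.47 for *Irgm1* log2. Over all probes, the other limma settings called 0 to 22 for *Fcgr2b*-deficient against wild-type mice and 0 to 39 leaving out arrays, against 16, and the Mann-Whitney test called 144 without adjustment. The 75th percentile over probes, added after seeing the data, left 0 members called. The cause of the sign changes was not tested.

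Correlations over the probes tested, once genotype means were removed, did not show pairing by replicate number. Of 24 pairs with the same number, 11 had an r over 0.1. Their r ran from −0.603 to 0.689, against −0.652 to 0.81 in 72 other pairs, and 5 of 16 samples were closest to their own number. Whether mice or arrays were handled in sets by number was not tested, and in the authors' table arrays of the same number shared a distribution. With replicate number as a block, 0 members were called. *Fcgr2b*-deficient mouse 3 and double-deficient mouse 4, which share an animal number, were the lowest of their groups by the median of the members (−1.100 and −1.30 log2 from the wild-type means), with an r of 0.67 over the probes tested once genotype means were removed, and *Fcgr2b*-deficient mouse 4 and double-deficient mouse 3 had an r of 0.371. With that number as a block, 0 members were called. Over all probes 0 were then called for *Fcgr2b*-deficient against wild-type mice, against 16 without a block.

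With 4 mice per genotype, a difference whose interval held 0 could not be told from no difference. Dim probes such as *Ifng* were close to background, and arrays do not measure protein.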
